A study of Mus musculus with 34 samples.

Results

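The loci of Aldh1a2 and Chst3 were described from every ChIP-seq peak called over either gene and 200 kb to each side of it. These are 2 of the 21938 protein-coding genes of the annotation, chosen by name. The paper on these samples had already reported higher RNA of both in cells depleted of CTCF. It had also reported higher H3K4me3 at the Aldh1a2 promoter, so the promoter marks described below are not an independent result. Aldh1a2 (ENSMUSG00000013584.5) lies on the forward strand at chr9:71215789-71296243 of mm10, spans 80.5 kb, and was read in a window of 480 kb. Chst3 (ENSMUSG00000057337.13) lies on the reverse strand at chr10:60181532-60219260, spans 37.7 kb, has 3 annotated transcript starts, and was read in a window of 438 kb. The windows held 646 and 592 of the 1393623 peaks in all lists. Distances are given in kb from the start site of the longest transcript, upstream or downstream in the direction of transcription of the gene.

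The cells were bone marrow-derived dendritic cells (BMDCs), grown for 6 days with GM-CSF from the marrow of 8-week-old C57BL/6 mice. All cultures carried the tamoxifen-inducible CreER and received 4-OH tamoxifen on the first day. CTCF-WT cells had intact Ctcf, whereas CTCF-KO cells carried CTCF fl/fl alleles that CreER deletes, so that differentiation took place after Cre had been induced. Cells of either genotype were left unstimulated (WT, KO) or exposed for 3 h to 100 ng/ml of LPS, the endotoxin sensed by TLR4 (WTLPS, KOLPS). The comparison asks how binding and histone marks around both genes differ when CTCF is depleted. Of 34 samples, 30 had a peak list: CTCF, SMC1, p65, H3K4me3, H3K27ac, H3K4me1 and H3K27me3 in all 4 conditions, and STAT5 in both unstimulated genotypes, each put back into GM-CSF for 15 min before harvest. The share of cells with the deletion cannot be read from these lists.

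CTCF binds DNA through a motif that has a direction, and together with cohesin, the ring complex of which SMC1 is a subunit, it holds chromatin loops and insulates domains from each other. Cohesin also gathers at active enhancers and promoters without CTCF. H3K4me3 marks promoters, H3K27ac active promoters and enhancers, H3K4me1 enhancers, and H3K27me3 chromatin under Polycomb repression. STAT5 carries the signal of the GM-CSF receptor, and p65 (RelA) is the NF-κB subunit activated by LPS. Aldh1a2 encodes the retinaldehyde dehydrogenase that makes retinoic acid, which dendritic cells use to steer regulatory and gut-homing T cells. Chst3 encodes a sulfotransferase that puts sulfate on the 6 position of N-acetylgalactosamine in chondroitin.

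There was 1 list for each antibody and condition, with no replicate list among the files used here, so no test between conditions could be made and no p-value is given. Peak height is the fold over local background deposited with each peak. It is a ratio of fragment pileup to background with 1 added to both, so lower coverage alone lowers it. The whole number of fragments behind the fold was recovered for all 714 narrow peaks of the windows, and fold intervals are 95% Poisson intervals of that number, which cover counting error only. Background coverage ranged from 0.705 to 5.76 fragments per base over the 30 lists, and the fewest fragments at which a peak was called were 17, 17, 15 and 15 for CTCF and 21, 22, 21 and 19 for SMC1 in WT, WTLPS, KO and KOLPS. A WT peak is called kept where it shares at least 1 base with a peak of the KO list of the same antibody and stimulus, and lost where it does not. As these are bulk samples, fewer cells with a feature and less of it per cell cannot be told apart. The label was checked at promoters: 10 of 10 dendritic and myeloid markers had H3K4me3 in every condition and 9 of 10 had H3K27ac, Flt3 being the exception. Markers of T cells and neutrophils had no H3K4me3 (0 of 4 each), while Pax5, Epor, Klf1 and Col1a1, of lists of 3 B cell, 3 erythroid and 3 stromal genes, had it in every condition without H3K27ac. No list of another cell type had H3K27ac at more than 1 gene in any condition. The label of the STAT5 samples names an antibody against total STAT5 and the methods a catalogue number listed for the phosphorylated form, so which form was measured is not settled.

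Several CTCF sites carry the comparison, and their reference sequence shows which motif each one holds and in which direction. A motif of 17 positions was learned from the strongest WT CTCF summits of other chromosomes. Its stronger threshold was met within 100 bp of 29.8% of 10791 WT CTCF summits and of 1% of windows 1 kb away, and its weaker threshold by 65.6% and 5%. Each sequence is 47 bases of the RefSeq genome GRCm38 (mm10) written 5′ to 3′ on the strand of the motif, with the 17 matched bases in capitals. The first 5 are the promoter site of Aldh1a2 and 4 of its kept sites.
Aldh1a2, 0.525 kb upstream, chr9:71215296-71215342, forward: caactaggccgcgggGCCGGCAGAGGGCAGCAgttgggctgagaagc
Aldh1a2, 4.74 kb upstream, chr9:71211048-71211094, forward: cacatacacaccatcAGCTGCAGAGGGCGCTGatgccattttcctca
Aldh1a2, 26.6 kb upstream, chr9:71189204-71189250, reverse: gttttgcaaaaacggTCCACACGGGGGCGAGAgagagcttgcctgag
Aldh1a2, 86.8 kb upstream, chr9:71129030-71129076, forward: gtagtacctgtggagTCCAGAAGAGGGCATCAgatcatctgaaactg
Aldh1a2, 143 kb downstream, chr9:71359137-71359183, forward: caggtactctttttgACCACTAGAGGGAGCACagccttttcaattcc

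At Chst3 the sites shown are the strongest site of the window, its neighbour towards the gene, the kept site beyond the 3′ end, and a pair that share nearly all of their bases.
Chst3, 26 kb upstream, chr10:60245210-60245256, reverse: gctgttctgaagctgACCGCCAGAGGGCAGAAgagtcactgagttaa
Chst3, 18.7 kb upstream, chr10:60237939-60237985, reverse: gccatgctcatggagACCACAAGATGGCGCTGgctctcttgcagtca
Chst3, 71 kb downstream, chr10:60148260-60148306, forward: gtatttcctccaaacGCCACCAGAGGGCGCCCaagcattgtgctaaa
Chst3, 196 kb downstream, chr10:60023262-60023308, reverse: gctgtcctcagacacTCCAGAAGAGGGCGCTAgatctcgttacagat
Chst3, 199 kb downstream, chr10:60020349-60020395, forward: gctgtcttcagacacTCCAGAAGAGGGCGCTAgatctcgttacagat
The sites at 196 and 199 kb are identical at 46 of 47 bases (97.9%) and lie on opposite strands within Ascc1 introns. With the sites at 96 and 220 kb they form a group that shares 41 to 46 of 47 bases, so reads of one could be placed at another. None of the 4 was called in KO or KOLPS.

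Around Aldh1a2, every CTCF site called in WT had a lower fold or no peak in KO. Of 23 WT CTCF peaks in the window, 7 were kept in KO (30.4%, Wilson 95% interval 15.6 to 50.9), and of 21 WTLPS peaks, 5 were kept in KOLPS (23.8%, 10.6 to 45.1). Over all peaks of the lists, 76.3% of WT peaks were lost in KO and 82.5% of WTLPS peaks in KOLPS, which leaves 23.7% and 17.5% kept, so the share at Aldh1a2 lay near that of the genome. All 8 KO and 5 KOLPS CTCF peaks of the window lay on a WT or WTLPS peak, respectively. Over the whole lists 76.7% of KO and 86.1% of KOLPS CTCF peaks did so.

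**Figure D1:**
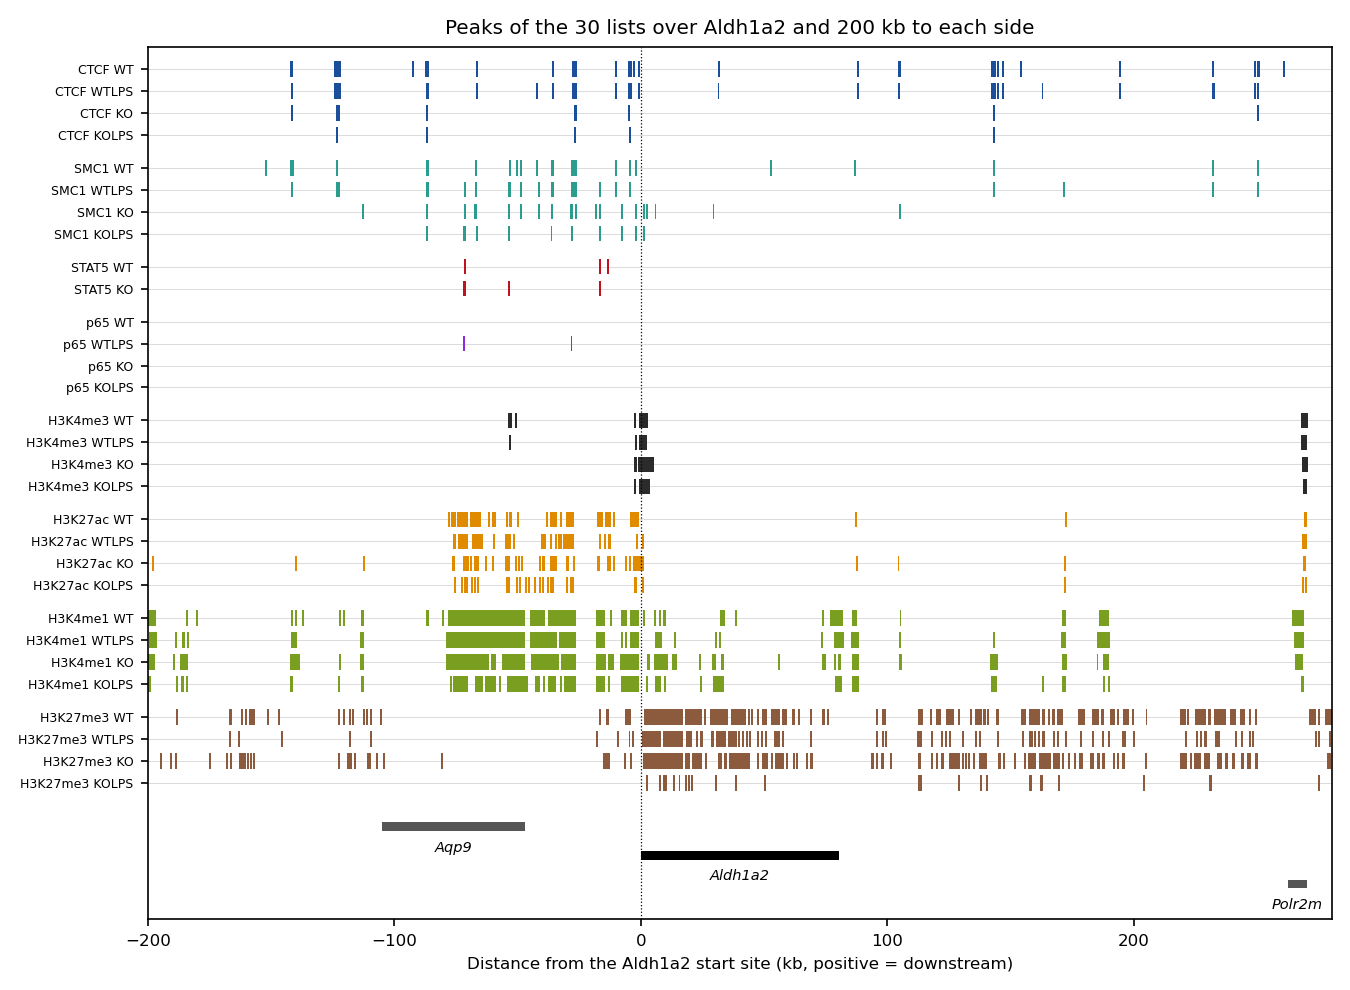
Peaks of the 30 lists (rows) over Aldh1a2 and 200 kb to each side. The x axis gives distance from the start site in kb, each bar is 1 peak drawn to scale, and black and grey bars below are Aldh1a2 and the other protein-coding genes. CTCF peaks number 23, 21, 8 and 5 in WT, WTLPS, KO and KOLPS, H3K27ac and H3K4me1 lie mainly upstream, and H3K27me3 lies mainly over the gene and downstream of it, with 73, 66, 79 and 21 peaks.

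The promoter site of Aldh1a2, 0.525 kb upstream, was among those lost. Its CTCF fold was 6.81 in WT (4.75 to 9.48, 33 fragments) and 6.27 in WTLPS, with no peak in KO or KOLPS, and its motif points in the direction of transcription. The strongest site of the window lay 86.8 kb upstream, inside the gene of the water and glycerol channel Aqp9, in the promoter region of the annotated transcript Gm47268. There the fold was 34.8 in WT (29.7 to 40.5, 164 fragments), 29.3 in WTLPS, 11.1 in KO (8.13 to 14.9, 43 fragments) and 8.9 in KOLPS. The intervals of WT and KO did not overlap, and this site kept the highest KO fold of the window.

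Between Aqp9 and Aldh1a2 lay several further CTCF sites, of which those at 26.6 and 4.74 kb upstream were kept. The site 26.6 kb upstream, in an intron of the non-coding gene Gm32511, had folds of 26.2, 21.8, 9.87 and 6.02 in WT, WTLPS, KO and KOLPS. The site 4.74 kb upstream, outside genes, had folds of 29.1, 20.1, 8.1 and 7.33. The motif at 26.6 kb lies on the reverse strand and that at 4.74 kb on the forward strand, so they point away from each other. Between them, the site 10.1 kb upstream carries a motif past the stronger threshold and had folds of 12.5 and 9.27 in WT and WTLPS with no KO or KOLPS peak.

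The remaining kept sites lay at the far ends of the window. Upstream, beyond Aqp9, the site at 142 kb had folds of 20.6 in WT and 4.69 in KO with none in KOLPS, and the site at 123 kb had 17.7, 16.1, 6.58 and 4.2. Downstream, outside genes, the site at 143 kb had folds of 29.5, 24.3, 9.11 and 7.85, and the site at 251 kb had 27.6, 24.5 and 4.05 with none in KOLPS. KO folds were 0.308 times the WT fold at the median over the 7 kept peaks (0.147 to 0.377), near the median of 0.35 over all kept peaks. The lost peak of highest WT fold, 18.4, lay 66.5 kb upstream in an Aqp9 intron, where no motif was found and where SMC1 and H3K27ac were called in KO.

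At Chst3 the same number of CTCF peaks was kept, 7 of 23 in KO (30.4%, 15.6 to 50.9) and 6 of 23 in KOLPS (26.1%, 12.5 to 46.5), which again lay near the share over all peaks. The 9 KO and 6 KOLPS peaks of this window also all lay on WT or WTLPS peaks, beside 76.7% and 86.1% over the whole lists. The strongest site lay 26 kb upstream, outside genes, at what is in WT the edge of a large H3K27ac domain that reaches into Psap. Its fold was 37.4 in WT (32.1 to 43.3, 176 fragments), 30 in WTLPS, 17.5 in KO (13.6 to 22.1, 68 fragments) and 16 in KOLPS. WT and KO intervals did not overlap.

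**Figure D2:**
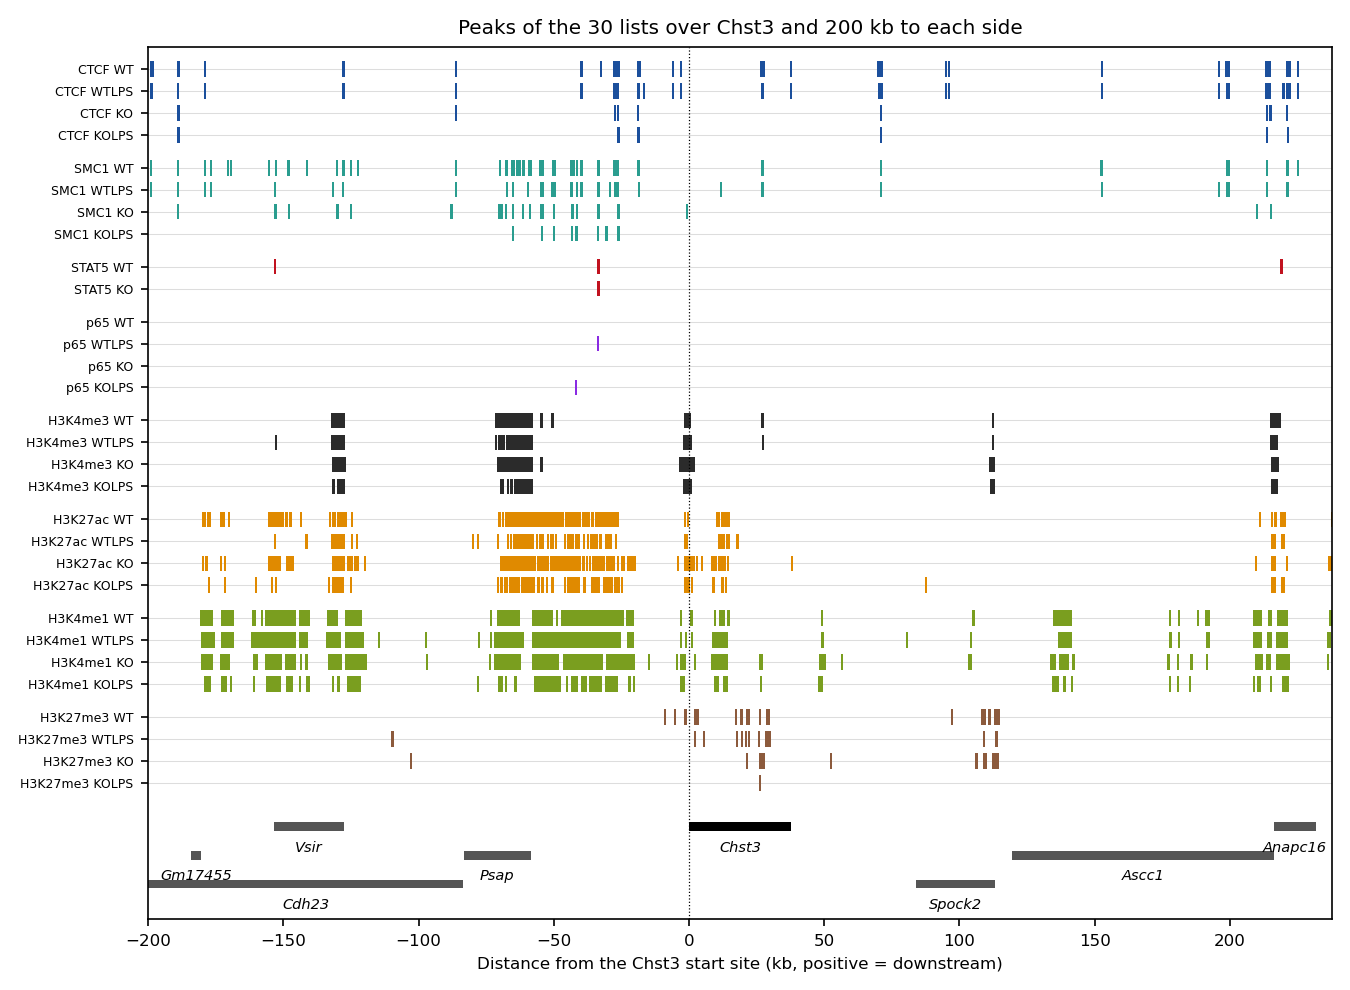
Peaks of the 30 lists (rows) over Chst3 and 200 kb to each side. The x axis gives distance from the start site in kb in the direction of transcription, each bar is 1 peak drawn to scale, and black and grey bars below are Chst3 and the other protein-coding genes. SMC1, H3K27ac and H3K4me1 crowd between 26 and 70.5 kb upstream, towards Psap, and SMC1 peaks number 39, 31, 21 and 8 in WT, WTLPS, KO and KOLPS.

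The site 18.7 kb upstream, the next towards Chst3, was kept with folds of 17.7, 18.1, 7.09 and 6.54 in WT, WTLPS, KO and KOLPS. Its motif and that at 26 kb both point in the direction of transcription. Beyond the 3′ end of the gene, the site 71 kb downstream had folds of 13, 16, 9.45 and 5.26, and its motif points back towards the gene. The site 189 kb upstream, in a Cdh23 intron, had folds of 15 (12.1 to 18.5), 11.3, 13.4 (10.5 to 16.9) and 12.8. Its WT and KO intervals overlapped, and its KO to WT ratio of 0.894 was the highest in either window.

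Further kept sites near Chst3 lay at other genes. In an exon of Cdh23, a cadherin, the site 86.2 kb upstream had folds of 14.4 and 5.64 in WT and KO and none in KOLPS. The sites 214 and 221 kb downstream, at the promoter regions of Ascc1 (a subunit of an activating signal cointegrator complex) and Anapc16 (a subunit of the anaphase-promoting complex), had folds of 19.8, 20.3, 5.57 and 6.28, and of 24.5, 18.5, 8.36 and 6.8. The median KO to WT ratio over the 7 kept peaks was 0.4 (0.281 to 0.894).

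CTCF was lost within Chst3 itself. In an intron 27.3 kb downstream of the start site, folds were 17.5 in WT and 13.5 in WTLPS with no KO or KOLPS peak, the highest WT fold among the lost peaks of this window, although no motif was found there. In the last exon, 37.7 kb downstream, folds were 5.92 and 5.6 with no KO or KOLPS peak at a motif of the stronger class. Next to the promoter, 2.75 kb upstream, folds were 5.28 (24 fragments) and 5.29, again with no KO or KOLPS peak. This last peak only reaches the edge of the promoter region of 2.5 kb to either side, and it falls outside a region of 1 kb, so the promoter of Chst3 counts as bound by CTCF under the wider definition only. Over all protein-coding promoters with a WT CTCF peak, 55.9% had none in KO, and 71.1% of those with a WTLPS peak had none in KOLPS, so the loss at both promoters was shared by most bound promoters.

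**Figure D3:**
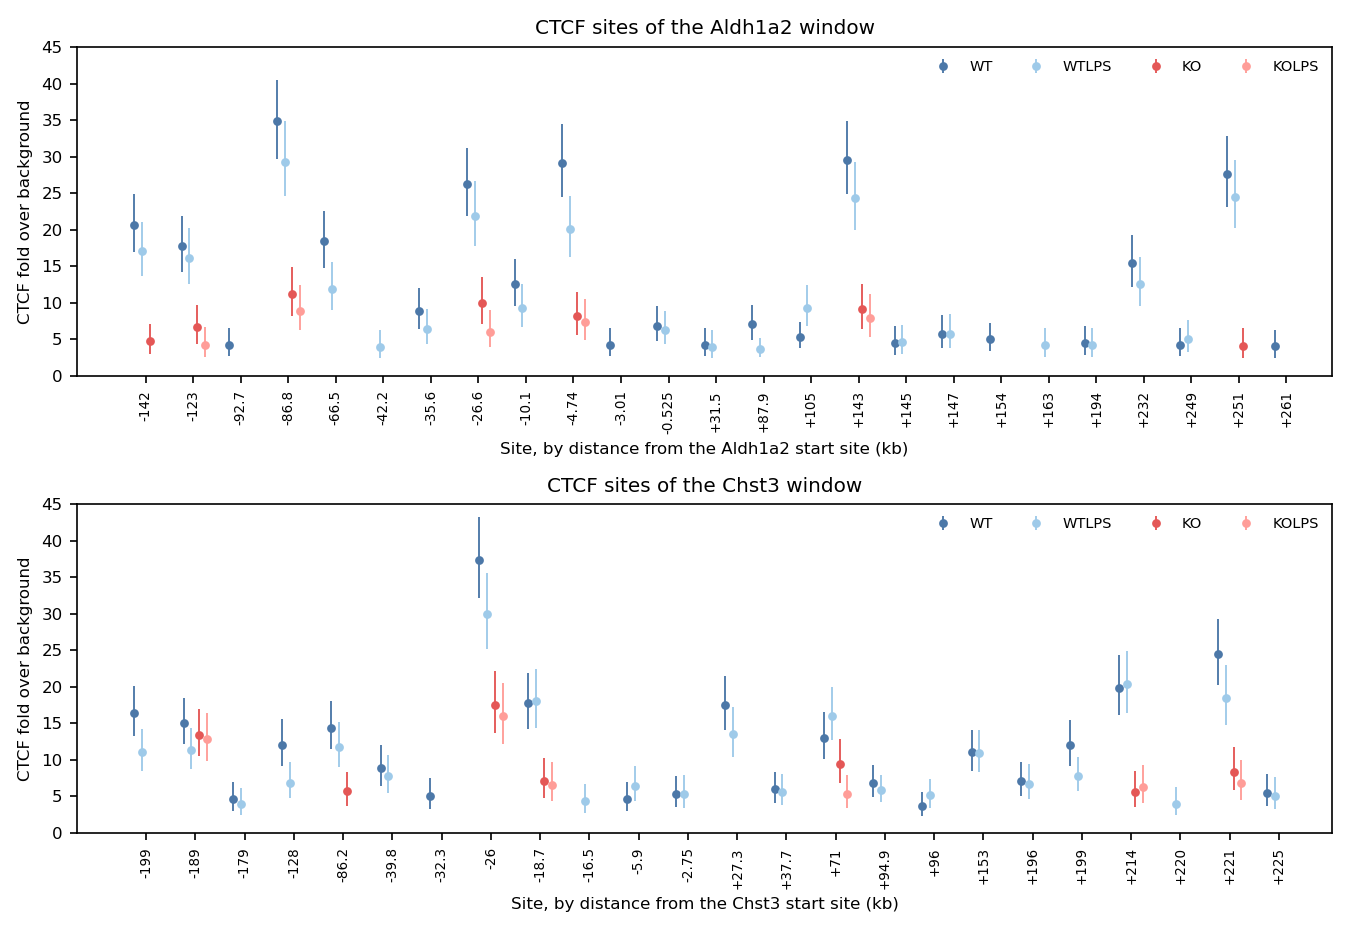
CTCF fold over background (y axis) at each CTCF site of the Aldh1a2 and Chst3 windows, named on the x axis by distance from the start site in kb (negative values are upstream). Points are the fold in each condition with 95% Poisson intervals of the fragment number, and a missing point means no peak. The 14 kept sites have WT folds from 13 to 37.4, and KO points lie below WT points at all of them.

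Merging the lists gave 25 CTCF sites at Aldh1a2 and 24 at Chst3, of which 5 and 6 were called in all 4 conditions. The 14 sites kept in KO all carried the motif at the weaker threshold, against 20 of the 31 sites lost and 65.6% of WT CTCF summits. The motif was learned from the strongest WT summits, and kept sites had the higher WT folds. This contrast is therefore not independent of peak height, and its size over all kept and lost peaks is not given. At the stronger threshold the windows differed, with 3 sites at Aldh1a2, all lost in KO, and 10 at Chst3, of which 4 were kept. All WT peaks of the windows that ranked in the highest 10% of the WT list were kept in KO (5 of 5 and 2 of 2), as were 5720 of 6054 over the whole list. With LPS 4 of 5 and 2 of 2 were kept, and 4333 of 5402 over the whole list, and the highest WTLPS peak lost at Aldh1a2, of fold 24.5, lay above the median of 21.8 of those kept. Without LPS, median WT folds of kept and lost peaks were 27.6 and 5.16 at Aldh1a2 and 17.7 and 6.35 at Chst3. Some lost sites rested on few WT fragments, 18 to 20 at 7 sites of the Aldh1a2 window, where 17 were needed for a call in WT and 15 in KO.

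SMC1 peaks were counted in all and then in 4 classes, by whether CTCF and H3K27ac lay under the WT peak. At Aldh1a2, 7 of 19 WT SMC1 peaks were kept in KO (36.8%, 19.1 to 59) and 7 of 18 WTLPS peaks in KOLPS (38.9%), and at Chst3 17 of 39 (43.6%, 29.3 to 59) and 7 of 31 (22.6%, 11.4 to 39.8). Over all SMC1 peaks 65.5% were lost in KO and 76.7% in KOLPS. Where the WT peak had CTCF but no H3K27ac, 1 of 7 was kept at Aldh1a2 and 1 of 13 at Chst3, against a loss of 90.5% over all such peaks. Where it had H3K27ac but no CTCF, 2 of 2 and 14 of 17 were kept, against a loss of 30.8% over all such peaks. These classes differ in CTCF and in H3K27ac at once. Where the WT peak had both, 3 of 4 and 1 of 4 were kept (all such peaks lost 49.5%), and where it had neither, 1 of 6 and 1 of 5 (63.1% lost).

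With LPS the peaks with CTCF alone kept 1 of 9 at Aldh1a2 and 0 of 15 at Chst3, beside a loss of 93.8% over all such peaks. Those with H3K27ac alone kept 3 of 3 and 6 of 12 (50.4% lost over the list), those with both 3 of 3 and 1 of 2 (64.2%), and those with neither 0 of 3 and 0 of 2 (78.3%). The classes of the windows hold 2 to 17 peaks, so the order of their shares is a description.

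The highest SMC1 peaks of both windows sat on the highest CTCF peaks. At 86.8 kb upstream of Aldh1a2, SMC1 folds were 33.7, 32.8, 5.52 and 5.1 in WT, WTLPS, KO and KOLPS, and at 26 kb upstream of Chst3 they were 35.6, 28.8, 4.86 and 3.16. SMC1 was thus still called at both, at a far lower fold. At the CTCF site 4.74 kb upstream of Aldh1a2, SMC1 folds were 16.7 and 11.2 in WT and WTLPS and no peak was called in KO or KOLPS, although CTCF was still called there. Around the site 26.6 kb upstream, one SMC1 peak of fold 20.9 in WT gave way in KO to a pair of peaks with folds of 4.42 and 3.79.

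The other high WT SMC1 peaks were kept at some sites and lost at others. At 142 kb upstream of Aldh1a2 the folds were 13.5 and 14.7 in WT and WTLPS with none in KO or KOLPS. At 66.6 kb upstream, in Aqp9, CTCF was called in WT and WTLPS only, and SMC1 in all 4 conditions, with folds of 13.1, 12.3, 5.36 and 5.28. H3K27ac over this site had folds of 7.82, 7.74 and 5.72 in WT, WTLPS and KO, with no peak in KOLPS. In the Chst3 intron 27.3 kb downstream, where CTCF was lost, SMC1 folds were 16.9 and 15.7 in WT and WTLPS with none in KO or KOLPS.

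From 33.5 kb upstream of Chst3 into Psap lay a run of WT SMC1 peaks that had H3K27ac and no CTCF, except at 39.8 kb, where the peak had CTCF and no H3K27ac. At 33.5 kb upstream of Chst3, which is also the strongest STAT5 site, SMC1 folds were 14.8, 13.3, 13.1 and 8.55 in WT, WTLPS, KO and KOLPS. At 49.8 kb WT and KO folds were 11.7 and 6.31, and at 41.5 kb they were 10.9 and 7.57. Out to 70.1 kb, within Psap, which encodes the precursor of the lysosomal saposins, this run held most of the kept SMC1 peaks of the window. The highest H3K27ac peak of the window in WT lay in it, 41.1 kb upstream, with folds of 25.3 (19.1 to 32.9), 19.6, 26.3 (19.3 to 35) and 13.9 at the peaks over it in the 4 lists.

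Some SMC1 peaks were called in KO and not in WT. At Aldh1a2 this held for 11 of 19 KO peaks (57.9%) and at Chst3 for 5 of 21 (23.8%), against 25.3% of all KO SMC1 peaks. With LPS it held for 3 of 11 (27.3%) and 1 of 8 (12.5%), against 19% of all KOLPS peaks. At Aldh1a2 the 11 lay from 113 kb upstream to 105 kb downstream with folds of 3.47 to 5.36, and 3 of them had a peak in WTLPS. The highest, of fold 5.36 (33 fragments), lay 1.17 kb downstream of the start site under the H3K4me3 peak of the promoter, and a KOLPS peak of fold 4.19 lay at 1.18 kb. Others within the gene lay at 2.58, 5.87 and 29.4 kb, with folds of 3.47, 5.21 and 3.94. Upstream they lay at 113, 71, 41.3, 18.1, 16.8 and 7.56 kb, and the last of the 11, 105 kb downstream, was the only one on a WT CTCF peak. With 21 fragments needed for a call in either list, peaks of 21 to 33 fragments were close to the limit of detection.

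At Chst3 the SMC1 peaks called only in KO included one at the promoter. It lay 0.731 kb upstream with a fold of 4.58 (28 fragments). The others lay 68.8 and 87.9 kb upstream, in introns of Psap and Cdh23, and 210 and 215 kb downstream at Ascc1, with folds of 2.37 to 4.89. In KOLPS a single peak of fold 4 lay 30.5 kb upstream. Of promoters with no SMC1 peak in WT, 6.97% had one in KO, and 4.27% did so with LPS.

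Both promoters had a higher and wider H3K4me3 peak in KO than in WT. At Aldh1a2 the fold was 18.4 in WT (13.3 to 24.9, 40 fragments) and 33.2 in KO (26 to 41.6, 72 fragments), a ratio of 1.8, and peak widths were 3763 and 5453 bp. At Chst3 the fold was 10.3 in WT (6.63 to 15.4, 22 fragments) and 23.2 in KO (17.3 to 30.4, 50 fragments), a ratio of 2.25, and widths were 1878 and 5991 bp. The intervals of WT and KO did not overlap at either gene, and the coverage of the lists was 1.23 and 1.2 fragments per base. Over 12196 promoters with H3K4me3 in both lists the median ratio was 0.934, and 3.48% had a KO fold at least 1.5 times that of WT.

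With LPS the same order was seen, with lower ratios at both genes. At Aldh1a2 folds were 14.4 in WTLPS (9.86 to 20.3) and 24.4 in KOLPS (18.4 to 31.9), a ratio of 1.7, and at Chst3 they were 12.5 (8.35 to 18.1) and 16.5 (11.5 to 22.8), a ratio of 1.31. These intervals overlapped. The median ratio over 12126 promoters was also lower in this pair, 0.698 against 0.934 without LPS. Of these promoters 0.841% had a KOLPS fold at least 1.5 times that of WTLPS, a size reached by Aldh1a2 and not by Chst3. A ratio above that of Aldh1a2 was found at 0.429% of promoters, against 1.36% without LPS. For Chst3 these shares were 1.97% with LPS and 0.32% without.

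**Figure D4:**
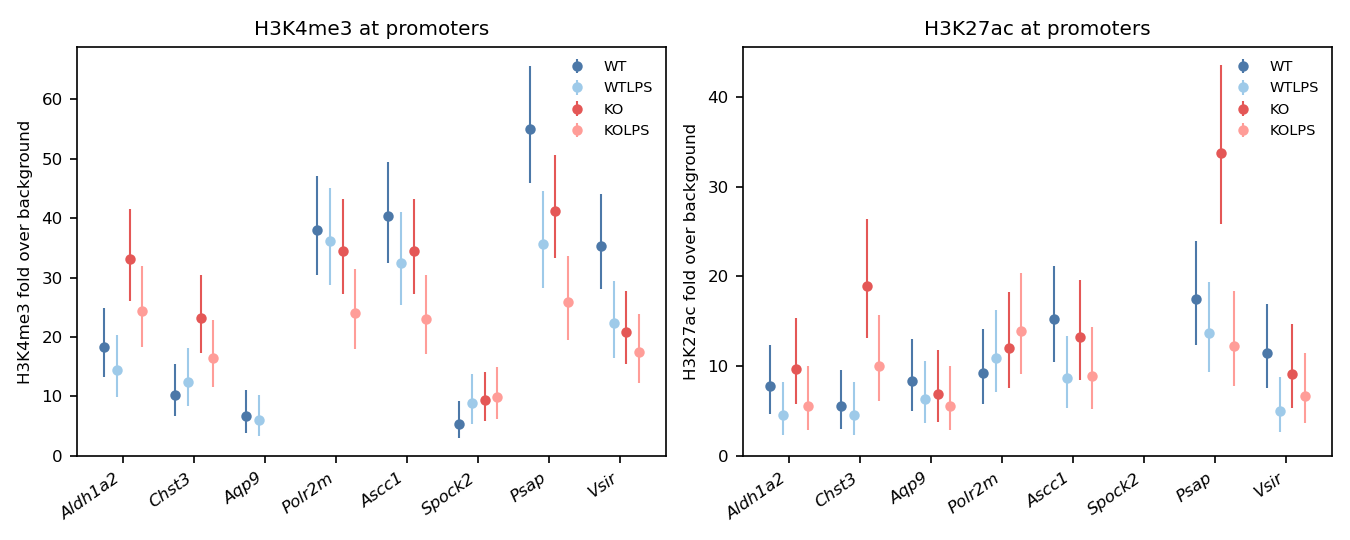
Highest H3K4me3 (left) and H3K27ac (right) fold over background (y axes) within 2.5 kb of the start site of Aldh1a2, Chst3 and neighbouring genes (x axis). Points are the 4 conditions with 95% Poisson intervals of the fragment number, and a missing point means no peak. H3K4me3 at Aldh1a2 and Chst3 is highest in KO, with folds of 33.2 and 23.2, while Psap, Ascc1 and Vsir are highest in WT.

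H3K27ac at the Chst3 promoter differed in the same direction. Its fold was 5.52 in WT (2.99 to 9.52, 11 fragments), 4.55 in WTLPS (2.33 to 8.23), 18.9 in KO (13.1 to 26.4, 32 fragments) and 10 in KOLPS (6.05 to 15.7), and the peak was 1033, 175, 4203 and 1187 bp wide. WT and KO intervals did not overlap and those of the LPS pair did. The ratios of 3.42 and 2.2 stood beside medians of 1.13 over 9021 promoters and 0.976 over 8121, and 16.9% and 8.5% of promoters had a fold at least 1.5 times higher in KO and KOLPS. Coverage of the H3K27ac lists was lower in KO than in WT, 0.748 against 1.17 fragments per base.

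At the Aldh1a2 promoter H3K27ac folds of 7.82, 4.55, 9.72 and 5.55 in WT, WTLPS, KO and KOLPS had overlapping intervals and gave ratios of 1.24 and 1.22. These are the highest peaks within 2.5 kb and were not the same peak in each list: those of WT, WTLPS and KO lay upstream of the start site and that of KOLPS downstream of it. In the gene body 0.703 kb lay under H3K27ac in KO, and 0.625 and 0.715 kb in WTLPS and KOLPS, against 0 kb in WT.

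The promoters differed in their other marks. Peaks lay at the Aldh1a2 promoter in 21 of 30 lists and at the Chst3 promoter in 17. SMC1 at Aldh1a2 had folds of 4.53 in WT (3.06 to 6.48), 6.94 in KO (5.07 to 9.3) and 4.91 in KOLPS, all near 1.9 kb upstream, with none in WTLPS, and at Chst3 it was called in KO alone. H3K27me3 reached the Aldh1a2 promoter region in all 4 conditions, with folds of 3.73, 3.99, 3.48 and 4.56, and the Chst3 promoter region in WT and WTLPS only, with folds of 3.37 and 3.11. When all 3 annotated start sites of Chst3 were used, H3K27me3 was present in all conditions and SMC1 in WT, WTLPS and KO, so these absences hold for the start of the longest transcript. Within 1 kb of the start, SMC1 at Aldh1a2 was called in KO and KOLPS only and H3K27me3 in WTLPS and KO only. Neither promoter had a STAT5 or p65 peak. The 250 bases before the start sites, taken from RefSeq, had GC contents of 77.6% for Aldh1a2 and 69.6% for Chst3, against a median of 52.4% over 32851 promoters.

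STAT5 bound away from both promoters, and its strongest sites were kept in KO. The sequences below are from GRCm38 (mm10), forward strand, and show the 3 main sites. At the site 71.3 kb upstream of Aldh1a2 the capitals mark a match to the STAT5 palindrome, searched as TTCNNNGAA on both strands. At the others, where this word was not found within 100 bp of the summit, they mark the 11 bases around the WT summit.
Aldh1a2, STAT5 71.3 kb upstream, chr9:71144534-71144592: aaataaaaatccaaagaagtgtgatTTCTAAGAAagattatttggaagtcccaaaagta
Aldh1a2, STAT5 16.7 kb upstream, chr9:71199017-71199117: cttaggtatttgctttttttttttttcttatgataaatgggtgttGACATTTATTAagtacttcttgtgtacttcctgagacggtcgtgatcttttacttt
Chst3, STAT5 33.4 kb upstream, chr10:60252640-60252740: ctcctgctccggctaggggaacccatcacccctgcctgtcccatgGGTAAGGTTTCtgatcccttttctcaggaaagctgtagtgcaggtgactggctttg
The word lay within 100 bp of the summit in 55.1% of WT STAT5 peaks and in 6.54% of windows 1 kb away. It had 0 matches in the whole Chst3 peak and 1 in the whole peak at 16.7 kb.

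At 33.4 kb upstream of Chst3 the STAT5 fold was 53.1 in WT (44.2 to 63.1, 125 fragments) and 43.6 in KO (36.1 to 52.2, 117 fragments). At 16.7 kb upstream of Aldh1a2 it was 24.1 (18.2 to 31.2, 55 fragments) and 18.9 (14.1 to 24.7, 50 fragments). At 71.3 kb upstream, in an Aqp9 intron, it was 12 (8.07 to 17.3) and 9.98 (6.65 to 14.5). The WT and KO intervals overlapped at all 3 sites, and the coverage of the lists was 1.33 and 1.7 fragments per base.

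Weaker STAT5 peaks were called in one genotype only. In WT they lay 13.2 kb upstream of Aldh1a2 (fold 5.15), and 153 kb upstream and 219 kb downstream of Chst3 (folds 7.3 and 6.01), the latter pair at Vsir and Anapc16. In KO one lay 53.5 kb upstream of Aldh1a2 at the Aqp9 promoter (fold 3.7). The kept share was 2 of 3 at Aldh1a2 and 1 of 3 at Chst3, with 35.2% of all WT STAT5 peaks lost. These peaks held 9 to 16 fragments where 8 or 9 were needed for a call.

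The STAT5 sites lay in active chromatin. At 33.4 kb upstream of Chst3, H3K27ac folds were 14.5, 10.5, 19.5 and 10.6 in WT, WTLPS, KO and KOLPS and H3K4me1 was called in all 4 conditions. At 71.3 kb upstream of Aldh1a2, H3K27ac folds were 7.36, 10.5, 8.58 and 6.66. At 16.7 kb upstream of Aldh1a2, H3K27ac was called in WT, WTLPS and KO but not in KOLPS, and SMC1 was called there in WTLPS, KO and KOLPS but not in WT.

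p65 appeared only with LPS and only in low peaks. In WTLPS its peaks lay 71.9 and 28.2 kb upstream of Aldh1a2, with folds of 5.24 and 5.39, and 33.6 kb upstream of Chst3, within the STAT5 peak, with a fold of 6.47. None of these was called in KOLPS, and of all WTLPS p65 peaks 77.3% were not. In KOLPS the only p65 peak, of fold 6.05, lay 41.8 kb upstream of Chst3. Each held 9 to 11 fragments where 6 or 7 were needed for a call. No κB word was found in any of them, which was also so for most p65 peaks, as the word lay in 10.9% of WTLPS peaks and in 1.12% of windows 1 kb away.

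H3K27ac around both genes lay mainly upstream. At Aldh1a2, 20 of 36 WT H3K27ac peaks were kept in KO (55.6%, 39.6 to 70.5) and 11 of 24 WTLPS peaks in KOLPS (45.8%, 27.9 to 64.9). At Chst3 they were 32 of 46 (69.6%, 55.2 to 80.9) and 33 of 46 (71.7%, 57.5 to 82.7). Over all H3K27ac peaks 52.8% and 58.8% were lost, that is, 47.2% and 41.2% kept. Neighbouring peaks of a domain are not independent, so these intervals are too narrow, and when a KO peak had to cover 50% of the WT peak the shares at Chst3 were 47.8% and 32.6%.

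Peaks closer than 12.5 kb were joined into domains. Upstream of Aldh1a2 the widest domain in WT ran from 77.9 to 0.814 kb upstream, through Aqp9 and Gm32511, and measured 77.1 kb with 33 peaks covering 23.1 kb, rank 448 of 15472 by covered bases. In WTLPS it measured 77.4 kb and ran past the start site, with 22 peaks covering 23.8 kb, rank 439 of 15335. In KO it measured 77.5 kb and also ran past the start site, with 40 peaks covering 12.9 kb, rank 578 of 15528. Reaching past the start site was thus not particular to KO. In KOLPS the domain measured 48.3 kb, ended 27.3 kb upstream, and covered 5.96 kb, rank 1218 of 14895. The domain was thus of like extent in WT and KO and more broken up in KO, in a list with less coverage.

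The widest domain at Chst3 ran from within Psap to the strongest CTCF site in WT and past this site in KO. In WT it extended from 70.5 to 26 kb upstream, 44.5 kb with 40.7 kb covered, rank 151, and in KO from 69.5 to 19.8 kb upstream, 49.7 kb with 40 kb covered, rank 52. In WTLPS and KOLPS 25.3 and 20.9 kb were covered. H3K27ac peaks were called from 6 fragments in WT and from 5 in KO, and the window held 46 and 67 of them. The longer reach of the domain in KO was not tested. A smaller domain over the Chst3 promoter ran from 1.72 kb upstream to 14.9 kb downstream in WT, with 6 peaks covering 5.08 kb (rank 2815), and from 4.25 kb upstream to 14.4 kb downstream in KO, with 12 peaks covering 7.49 kb (rank 1229). In WT the domain next in width lay at Vsir, which encodes the checkpoint protein VISTA, and measured 30.8 kb.

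**Figure D5:**
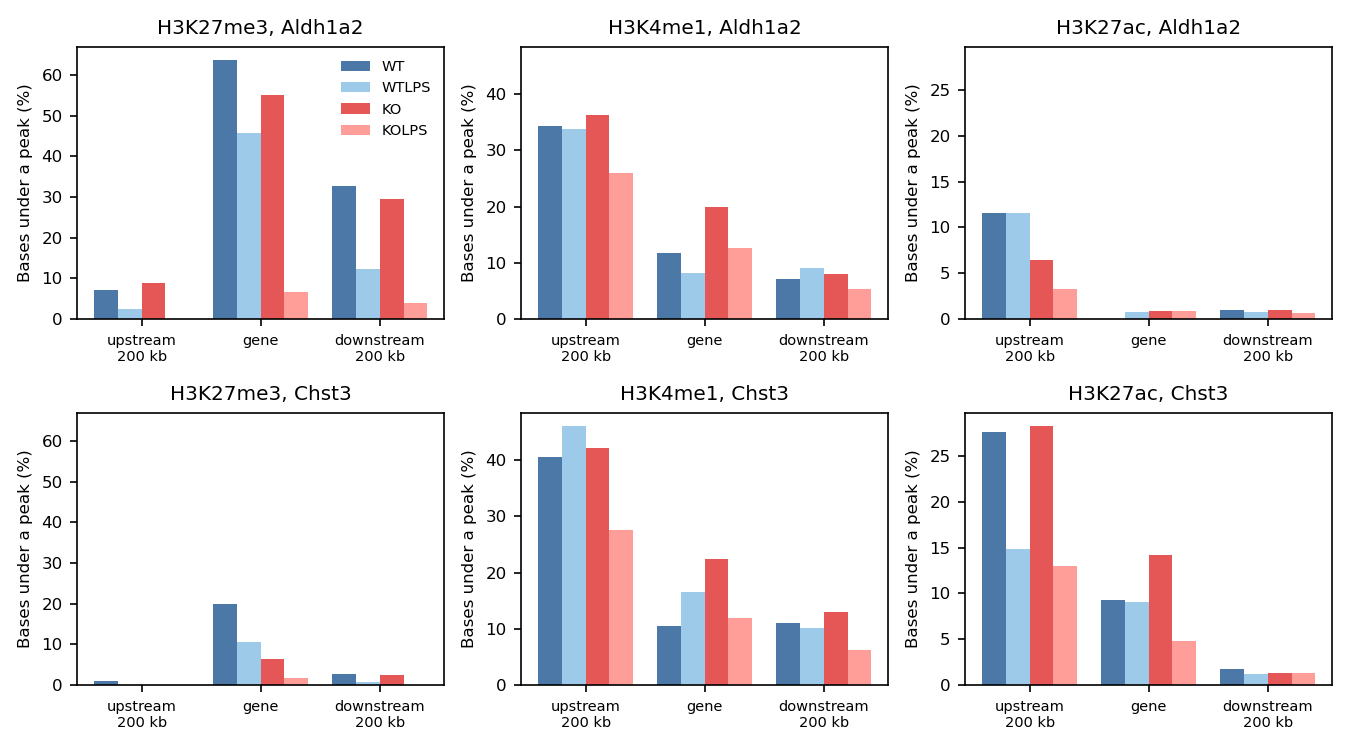
Share of bases under H3K27me3, H3K4me1 and H3K27ac peaks (y axes, percent; columns share a scale) in the 200 kb upstream, the gene and the 200 kb downstream (x axes) of Aldh1a2 (top) and Chst3 (bottom). Bars are the 4 conditions, 1 list each. H3K27me3 covers 63.7% of the Aldh1a2 gene in WT and 6.62% in KOLPS, and H3K27ac covers 27.6% of the bases upstream of Chst3 in WT and 28.3% in KO.

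H3K4me1 followed H3K27ac on the upstream side. In WT, WTLPS, KO and KOLPS it covered 34.3, 33.8, 36.3 and 26% of the 200 kb upstream of Aldh1a2. Upstream of Chst3 it covered 40.5, 46.1, 42.2 and 27.5%. Over all chromosomes it covered 258933, 263034, 232112 and 148584 kb, so the KOLPS list was the smallest throughout. Within the genes it covered 11.8, 8.1, 19.9 and 12.7% of Aldh1a2 and 10.5, 16.5, 22.4 and 12% of Chst3. The share was thus higher in KO than in WT in both genes, and with LPS higher in KOLPS in Aldh1a2 and lower in Chst3. The supplier named in the labels for H3K4me1 is not the one written into the names of its peaks.

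H3K27me3 set the genes apart. In WT it covered 131 kb of the Aldh1a2 window, with 63.7% of the gene and 32.7% of the 200 kb downstream under peaks but 7.23% of the 200 kb upstream, and the widest peak, 15942 bp, began inside the promoter region and ran into the gene. In KO it covered 121 kb, with 55.1% of the gene. Of the 73 WT peaks 56 were kept in KO (76.7%, 65.8 to 84.9), against 52.5% over all peaks, of which 47.5% were lost. Neighbouring peaks of this broad mark are not independent, so the interval is too narrow, and the difference was not tested. At Chst3 H3K27me3 covered 14.8 kb in WT and 7.74 kb in KO, with 19.8% and 6.33% of the gene, and 4 of 13 WT peaks were kept.

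With LPS the covered length was smaller in both genotypes, and so it was over the whole lists. It was 66.7 kb in WTLPS and 13.3 kb in KOLPS at Aldh1a2, with 45.7% and 6.62% of the gene covered, and 5.62 and 0.614 kb at Chst3. Over all chromosomes it was 117042, 56694, 112809 and 18718 kb in WT, WTLPS, KO and KOLPS. The lists also differ in their lowest −log10 p. With peaks of at least the highest of these lowest values, 3.47, the covered length at Aldh1a2 was 97.9, 66, 92.1 and 13.3 kb. Folds of this mark are averages over broad regions and carry no fragment number, so no interval can be given for them.

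Neighbouring promoters did not share the higher H3K4me3 of Aldh1a2 and Chst3, with 1 exception. KO to WT ratios were 0.906 at Polr2m (a protein bound to RNA polymerase II), 0.856 at Ascc1, 0.75 at Psap and 0.59 at Vsir, all below 1, and 1.73 at Spock2, which encodes the proteoglycan testican-2 and had folds of 5.38 in WT (2.91 to 9.27) and 9.31 in KO (5.86 to 14.1), whose intervals overlap, with no H3K27ac peak. Aqp9 had H3K4me3 in WT (6.72) and WTLPS (6.03) only, while its promoter kept H3K27ac and SMC1 in all 4 conditions. Psap had H3K27ac folds of 17.5, 13.7, 33.7 and 12.2 in WT, WTLPS, KO and KOLPS. Cdh23 had CTCF at its distant promoter in WT, WTLPS and KO and no H3K4me3, and Gm17455 lost its promoter CTCF peak of WT fold 4.59. Vsir, whose H3K4me3 ratio was 0.59, also lost its promoter CTCF peak. Its CTCF folds were 12 in WT and 6.84 in WTLPS, with no peak in KO or KOLPS.

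The pathways of the enzymes gave the comparison at promoters beyond these loci. The counts of each pathway include Aldh1a2 or Chst3 itself, which had been chosen by name. Of 34 genes of retinoic acid synthesis, binding, breakdown and reception, 10 had a promoter CTCF peak in WT and 6 of them lost it in KO (60%, beside the 55.9% of all bound promoters): Aldh1a2, Aldh1a7, Dhrs9, Fabp5, Rdh10 and Rxrb. With LPS it was 8 of 11 (72.7%, beside 71.1%). Aldh1a2 was the only one of 18 with H3K4me3 in both lists to reach a ratio of 1.5, the median being 0.886. With LPS it was the only one of 19. Without LPS, H3K4me3 was called in KO and not in WT at Aldh1a3 (fold 6.81), and in WT and not in KO at Crabp2 (fold 4.93). Fabp5, a fatty acid binding protein that also carries retinoic acid, lost a stronger CTCF peak (WT fold 20.7) and had a ratio of 1.17, and Rdh10, which oxidises retinol, had a ratio of 1.11.

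Of 28 genes of chondroitin and dermatan sulfate synthesis, 15 had promoter CTCF in WT and 11 lost it in KO (73.3%, beside 55.9% of all bound promoters), and with LPS 13 of 16 did (81.2%, beside 71.1%). The first 10 in the alphabet were Chst11, Chst13, Chst15, Chst3, Chst7, Chsy1, Csgalnact1, Dse, Slc35b2 and Ust. Ratios of H3K4me3 reached 1.5 at 3 of 25, Chst3 (2.25), the uronyl sulfotransferase Ust (1.64) and the epimerase homologue Dsel (1.58), of which Dsel had kept its CTCF peak, beside 3.48% of all promoters. The median over the 25 was 0.948. With LPS none of 24 reached it (0.841% of all promoters did), and the ratios were 1.31 at Chst3, 0.873 at Ust and 1.15 at Dsel. Chsy1, a chondroitin synthase with a WT CTCF fold of 17.1, had a ratio of 1.01, and Csgalnact1, with 17.7, had a ratio of 1.22.

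The combination of promoter peaks at the 2 genes was not particular to them. Over the 30 lists, H2-Q6, H2-Q7 and Timm10 differed from Aldh1a2 in a single list, and Ifnlr1 and Hspa2 in 2. Zfp740, Prkar2b, Gm4969, Trove2 and Uchl5 differed from Chst3 in a single list. H3K4me3 folds in WT and KO were 23.1 and 28.4 at H2-Q6 and 25.1 and 36.7 at H2-Q7, class I genes so alike that reads may be split between them. Trove2 and Uchl5 share a promoter region and gave the same values.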

How the data were processed

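ChIP-seq libraries were made by tagmentation. Per the labels' notes the authors used BWA 0.7.12, Picard 1.77, MACS2 2.1.2 and deepTools 3.1.3 on mm10, and the methods give other versions. The deposited lists give each peak's fold (a ratio of pileup to background) and its −log10 p and q. The unit was not changed here. Broad lists (H3K4me1, H3K27me3) hold averages over regions. The methods describe peak calling by sample and replicate. Which replicate a deposited list holds is not stated. The 4 input samples were not used here.

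Fragments were recovered from fold and −log10 p with Python 3.11.15, numpy 2.4.6, pandas 2.3.3 and scipy 1.17.1, matching −log10 p within 0.002, in code tested on simulated data. Promoters reach 2.5 kb up- and downstream of where the longest GENCODE transcript begins, overlap needs 1 bp, domains join gaps up to 12.5 kb, and shares carry Wilson 95% intervals. Named were both genes, protein-coding genes touching a window, pathway members losing promoter CTCF (10 per list at most, in alphabetical order), the 5 genes of most similar promoters, all promoter, STAT5 and p65 peaks, kept CTCF sites, the 5 highest WT CTCF and SMC1 peaks, KO-only peaks and the 3 widest domains. Others were chosen after their values were seen. The genes and lists were chosen with earlier results of these data known. Overlap, threshold, flank, coverage, promoter, stitching and motif settings were varied.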

Additional observations from a re-analysis of the deposited data

Results flagged for a closer look

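In 3 measures of Aldh1a2 the KO list lay on one side of the WT list without LPS and on the other with LPS, with 1 list per condition, so the difference was not tested. The promoter fold of H3K4me1 was 3.02 and 2.84 without and with LPS in WT cells and 2.8 and 3.09 in KO cells, so that KO minus WT was -0.219 and KOLPS minus WTLPS 0.251. The promoter fold of H3K27me3 was 3.73, 3.99, 3.48 and 4.56 (WT, WTLPS, KO, KOLPS), with differences of -0.251 and 0.57, where the KOLPS peak was 420 bp wide and the WT peak 15942 bp. The number of H3K27me3 peaks in the window was 73, 66, 79 and 21, with differences of 6 and -45, and the KOLPS list was also the shortest H3K27me3 list, 26960 peaks against 96475 in WT.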

How the results depend on the processing

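Of 116 values recomputed under another setting, 91 moved by less than their counting interval or by less than 1.5 times, and 25 moved further. Requiring that a KO peak cover 50% of the WT peak lowered kept shares most: at Aldh1a2 to 4.35% for CTCF, 4.76% for CTCF with LPS, 11.1% for SMC1 with LPS and 16.7% for H3K27ac without and with LPS, and at Chst3 to 0% for CTCF with LPS and to 47.8% and 32.6% for H3K27ac without and with LPS. KO peaks were narrower (median 432 bp against 662 bp for CTCF), and no share over all peaks is given for this setting. With peaks of −log10 p of at least 10, kept shares at Aldh1a2 were 25% for H3K27ac with LPS (8 peaks) and 100% for STAT5 (2 peaks). With a flank of 100 kb, CTCF shares at Aldh1a2 without and with LPS were 25% and 26.7%, the reverse of the order of 30.4% and 23.8% at 200 kb, and Chst3 shares were 63.2% for SMC1, 85% for H3K27ac and 100% for STAT5 (1 peak). Motif sites numbered 16 and 19 at the weaker threshold, against 3 and 10. A flank of 500 kb and thinning to the coverage of the KO lists moved no value past these limits. Other promoter definitions were tried on counts of lists and of pathway genes only and moved none of them past the limits. Single promoter calls did change: CTCF at Chst3 and SMC1 at Aldh1a2, both called in WT, were absent from WT within 1 kb of the start. Domain widths depended on the joining distance: at 5 kb the widest at Aldh1a2 measured 28.2, 24.9, 18.5 and 18.8 kb in WT, WTLPS, KO and KOLPS, so that WT was wider than KO, and at 25 kb it measured 76.7 kb in KOLPS, while the widest at Chst3 measured 130, 131 and 84.4 kb in WT, KO and KOLPS. With a common lowest −log10 p, H3K27me3 covered 9.1 and 4.41 kb at Chst3 in WT and KO. With 1 list per condition no replicate could be left out, and no paired analysis was possible because the lists carry no replicate numbers. Depth limits the CTCF and SMC1 calls at 15 to 22 fragments, p65 and STAT5 at 6 to 9.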

Other observations

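Beyond the 200 kb flanks, the strongest STAT5 peak near Aldh1a2 lay 200 to 500 kb downstream of the gene, with folds of 32.2 in WT and 22.2 in KO, both above those at 16.7 kb upstream. There the WT, WTLPS, KO and KOLPS lists held 14, 12, 6 and 6 CTCF peaks, while 200 to 500 kb upstream of Aldh1a2 they held 5, 4, 0 and 0. At the same distances from Chst3, CTCF had 20, 14, 2 and 1 peaks downstream and 8, 6, 2 and 1 upstream. The CTCF list of the whole genome was also shorter in depleted cells, with 20151 peaks (KO) against 60537 (WT). With LPS it was 11576 (KOLPS) against 54020 (WTLPS), so fewer CTCF peaks were not particular to these flanks. No STAT5 peak was called at these distances on either side of Chst3 in WT or KO. H3K27ac 200 to 500 kb upstream of Aldh1a2 had 47 peaks in WT and 33 in KO, covering 36.5 and 22.4 kb. The same span upstream of Chst3 had 2 and 10 peaks, covering 5.02 and 5.28 kb. The whole H3K27ac lists held 83461 peaks in WT and 81404 in KO, covering 60944 and 41296 kb.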
